A study of Mus musculus with 6 samples.

Results

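Predicted miRNA loci are places in the genome that a program proposes as hairpin precursors from small RNA reads, but where no miRNA has been annotated. The deposited table holds 1231 entries taken here as such loci among its 2624, and the other 1393 are annotated miRNAs. The loci were taken as all entries whose name starts with a chromosome, followed by a number, as in chr3_39460. The 6 small RNA libraries came from the right SN (right SNpc in the sample labels), 3 from hα-syn(A53T) mice infused with artificial cerebrospinal fluid (aCSF) and 3 from hα-syn(A53T) mice infused with Ang-(1-7). Both groups overexpress human α-syn with the A53T mutation and received 0.25 μL per hour through osmotic pumps for 4 weeks, with 1.1 nmol of Ang-(1-7) per hour in the second group only. The labels give the animals as an overexpressing strain, while the methods describe male C57BL/6J mice given AAV-hα-syn(A53T) in the right SNpc at 8 weeks of age. Neither source says whether a library is 1 mouse or a pool, so p-values here rest on differences among libraries that may be technical only.

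A miRNA gene is transcribed into a long primary transcript, from which Drosha cuts a hairpin and Dicer then cuts a short duplex. One strand of the duplex is loaded onto an Argonaute protein and pairs with messenger RNAs. Programs that predict new miRNA genes look for this signature, a stack of reads with sharp ends on 1 arm of a predicted hairpin, sometimes with fewer reads on the other arm. Fragments of tRNAs, rRNAs, snoRNAs and repeats can also form such stacks, and a prediction from few reads is therefore a candidate and not an established miRNA. The brain expresses a large variety of miRNAs.

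The names carried a chromosome and a number but no position, strand or sequence, and none was assigned here. The numbers ran from 15 to 65397, and the ranges of the chromosomes did not overlap when the chromosomes were put in alphabetical order (1, 10, 11 and so on to 9, then X and the unplaced scaffolds). The number therefore behaved as a running index over a longer list of candidates, with a median gap of 34 between neighbouring loci of 1 chromosome. In 16 cases a locus stood 1 number after another, for example chr19_30946 and chr19_30947 with 24 and 21 reads over all libraries, and chr4_43832 and chr4_43833 with 10 and 37 reads. The build named in the processing notes is mm9, but 2 loci, chrUn_GL456359_65375 and chrUn_JH584304_65397, lie on scaffolds named in the manner of GRCm38, and JH584304 is a sequence name of the GRCm38 annotation used here. The build behind the loci is therefore uncertain, and no coordinates are given.

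The tissue label was checked against brain miRNAs of the same table. miR-9-5p, a miRNA of neural progenitors and neurons, and miR-128-3p, which is enriched in brain, ranked 1 and 2 by mean level among the annotated miRNAs. The neuronal miR-124-3p ranked 35. miR-128-3p had 1.44e+06 to 2.00e+06 normalized counts with Ang-(1-7) and 1.04e+06 to 1.08e+06 without it, and miR-124-3p had 46739 to 79626 and 102230 to 112701, so both separated the groups, in opposite directions. miR-9-5p overlapped. The annotated miRNAs held 14796519 to 17088611 reads per library. Of the lists of other tissues, those of epithelium and muscle did not overlap between the groups, and no measured miRNA of any list was at 0 in a library. miR-208a-3p of heart was also on the lists, but had no measured values. The summed level of 3 epithelial miRNAs (miR-200a-3p, miR-200b-3p and miR-429-3p) ran from 153104 to 459213 normalized counts with Ang-(1-7) and from 2712 to 8046 without it. That of 3 muscle miRNAs (miR-1a-3p, miR-133a-3p and miR-206-3p) ran from 14872 to 21779 and from 41727 to 86139. miR-122-5p of liver ran from 126 to 355 and from 166 to 173, and miR-451a of red blood cells from 145 to 450 and from 155 to 167. The part of these tissues in the results on the loci was not tested, and in whole tissue a change in the number of cells of a type and a change in RNA per cell cannot be told apart.

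The loci took a very small part of each library. They held 5391, 4679 and 6102 reads with Ang-(1-7), and 6098, 6213 and 5639 reads without it. As a share of all reads in the table, this was 0.0347%, 0.0294% and 0.0368% with Ang-(1-7) and 0.0412%, 0.0373% and 0.0330% without it. The groups overlapped, with means of 0.0336 ± 0.00383% and 0.0372 ± 0.00411% (SD, n = 3, exact permutation test, two-sided p = 0.4, where the smallest p that 3 against 3 allows is 0.1). In reads, the means were 5391 ± 712 and 5983 ± 304 (SD, n = 3, exact permutation test, two-sided p = 0.3). One read of a locus was worth 0.876 to 1.03 normalized counts, depending on the library. The normalized count is the number of reads divided by a size factor that brings libraries to 1 scale, and the loci had size factors of their own.

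Most loci had very few reads. Over all 6 libraries, the median locus had 6 reads, with quartiles of 3 and 13. At most 5 reads were found for 595 loci, or 48.3%, against 317 of the annotated miRNAs (22.8%), whose median was 62 reads. A single read in all 6 libraries together was found for 60 loci. At the other end, 44 loci had at least 100 reads and held 64.3% of all 34122 reads of the loci, and the 5 highest had from 1739 to 4709 reads each. Of the mean level of all loci, 13.8% was in the highest locus, 34.5% in the 5 highest, 44.3% in the 10 highest and 65.8% in the 50 highest. It took 15 loci to reach 50% of that level and 424 to reach 90%.

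**Figure D1:**
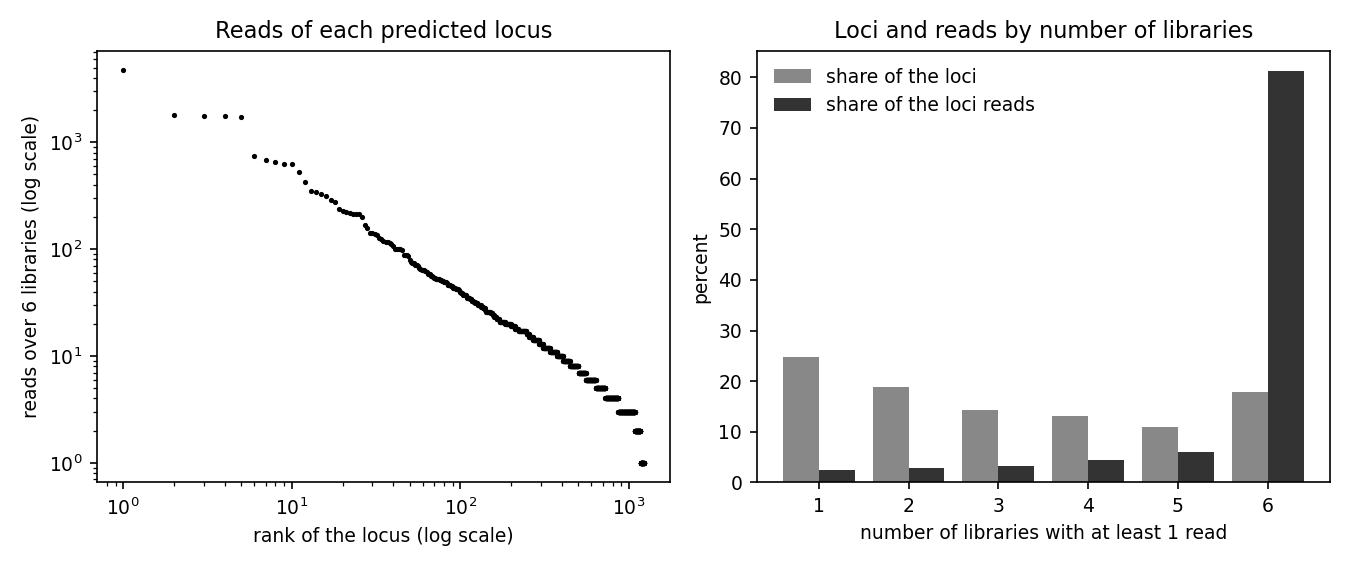
Left, the reads of each of the 1231 predicted loci over 6 libraries against its rank, both on log scales, falling from 4709 reads to 1. Right, the share of the loci (grey bars) and of their reads (black bars) by the number of libraries with at least 1 read, where the loci present in 6 libraries are 18.0% of the loci and hold 81.2% of the reads.

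Detection followed the same split. A locus was taken as detected in a library with at least 1 read. All 6 libraries detected 221 loci, 18.0% of the total, and these held 81.2% of the reads. A single library detected 306 loci, 24.9% of the total, with 2.42% of the reads. Of these 306, 246 had at least 2 reads in that library and 16 at least 5, up to the 6 reads of chr2_36420 in Ang-(1-7) replicate 2. Among the annotated miRNAs, 61.7% were detected in all 6 libraries and 10.6% in 1 library. The libraries of 1 group differed by more than counting error over the loci with at least 15 reads in that group (chi-square per degree of freedom of 4.28 over 131 loci with Ang-(1-7) and 3.32 over 142 loci without it), so none was treated as a copy of another. Across the 493 loci tested, log2 levels correlated at 0.69 to 0.76 within a group and at 0.61 to 0.71 between the groups, a description over loci, which share depth within a library.

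The number of loci detected per library overlapped between the groups. With Ang-(1-7), 651, 612 and 663 loci were detected, and without it 663, 687 and 667. The lowest number was in the library with the fewest reads of the loci. The means were 642 ± 26.7 and 672 ± 12.9 (SD, n = 3, exact permutation test, two-sided p = 0.2). At the depth of the shallowest library, the expected numbers were 624, 612 and 607 with Ang-(1-7) and 610, 632 and 629 without it, with means of 614 ± 8.48 and 623 ± 11.8 (SD, n = 3, exact permutation test, two-sided p = 0.3). With at least 2 reads as the limit, 466, 414 and 460 loci were detected with Ang-(1-7) and 469, 502 and 469 without it, so every Ang-(1-7) library lay below every other. The exact permutation test gave a two-sided p = 0.1, the smallest that 3 against 3 allows. Between 26.9% and 32.4% of the loci detected in a library had 1 read there, and the median detected locus had 2 or 3 reads. A locus at 0 reads could still have up to 3 reads per library of the same depth by counting error alone, and the median detected locus stood at or under that limit in every library. Such limits cover counting error only, since PCR copies are not independent molecules.

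The loci lay on all 19 autosomes and on X, with 1 on each of the 2 scaffolds and 0 on Y and on the mitochondrial genome. Chromosome 11 held the most, 127, followed by chromosome 7 with 106 and chromosome 2 with 102, together 335 loci or 27.2%. Chromosome 18 held the fewest, 24, followed by chromosome 14 with 32. Across the 20 chromosomes, the number of loci followed the number of protein-coding genes in GENCODE M21 (Spearman's rho of 0.89, Pearson's r of 0.89) more closely than the position of the last gene, a stand-in for chromosome length (rho of 0.46, r of 0.38). Across the 19 chromosomes with RefSeq miRNA hairpins in the table used here, rho with the number of hairpins was 0.55 and r was 0.46. Chromosome 18 had 0 hairpins in that table and was left out. Whether its 1005 hairpins are complete was not checked. These are descriptions over chromosomes, with no test of which is closer. There were 3.55 loci per 100 protein-coding genes on chromosome 14, the lowest value, and 7.88 on chromosome 8, the highest, with a median of 5.37. Chromosome 12 had 92 RefSeq hairpins, the most of any chromosome in that table, and 43 loci. X had 86 hairpins and 36 loci.

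Reads were spread over the chromosomes very differently from loci. Chromosome 3 held 52 loci but 5605 reads, 16.4% of all, of which 4709 came from chr3_39460. Without that locus it had 896 reads. Chromosome 2 had 3915 reads, of which 3164 came from loci other than its highest, the largest remainder of any chromosome. Chromosome 11, with the most loci, had 2239 reads and chromosome 18 had 261. Without the highest locus of each chromosome, reads and loci had a Spearman's rho of 0.84 across the 20 chromosomes, against 0.59 with it.

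**Figure D2:**
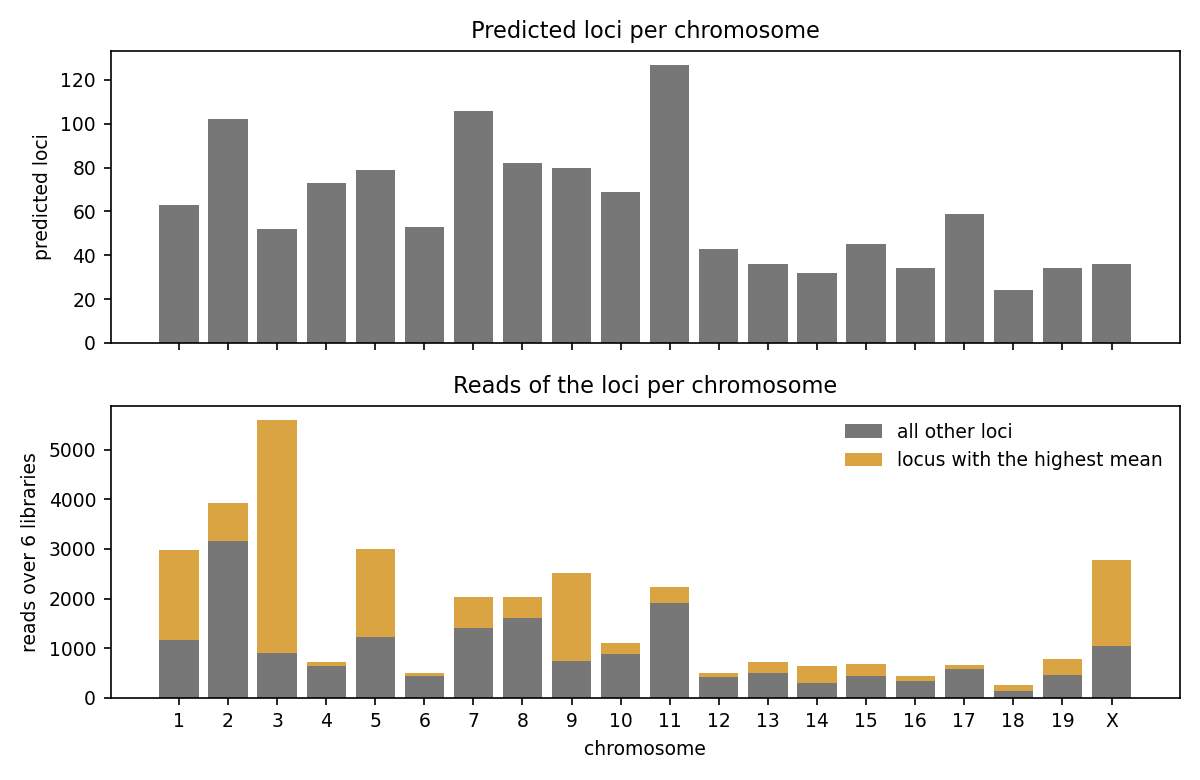
Top, the number of predicted loci on each chromosome, highest on chromosome 11 (127) and lowest on chromosome 18 (24). Bottom, the reads of these loci over 6 libraries, with the locus of the highest mean on each chromosome in yellow and all others in grey. On chromosome 3, 4709 of 5605 reads belong to 1 locus.

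The 10 loci with the highest mean held 43.5%, 41.4% and 45.8% of the reads of the loci in the Ang-(1-7) libraries and 46.7%, 43.3% and 44.5% in those without it. The groups did not separate (43.6 ± 2.22% against 44.8 ± 1.70%, SD, n = 3, exact permutation test, two-sided p = 0.5). The set was chosen by mean level, which fell from 99.9 normalized counts at the last of the 10 to 85.0 at the next locus. With near-identical loci, described below, counted once, a choice made after the data were seen, the shares were 38.6 ± 4.20% and 42.7 ± 2.58% (SD, n = 3, exact permutation test, two-sided p = 0.3). The members, however, took different shares in different libraries.

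The highest locus was chr3_39460, at 810, 322 and 656 normalized counts with Ang-(1-7) and 1066, 1041 and 659 without it. Ang-(1-7) replicate 2 was by far the lowest, and the highest Ang-(1-7) value lay above the lowest value of the other group. Its share of the reads of the loci ran from 6.71% in Ang-(1-7) replicate 2 (Wilson 95% interval 6.03 to 7.46) to 18.2% in hα-syn(A53T) replicate 1 (17.2 to 19.2). The log2 fold change, on the log2(normalized count + 1) scale used for all loci, was -0.70 (standard error 0.34, limma adjusted p = 0.286), with a 95% interval of -1.44 to 0.04.

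Next came a set of 3 loci on different chromosomes with almost the same reads. chr1_2789 had 250, 391 and 382 reads with Ang-(1-7) and 222, 233 and 330 without it. chr9_61433 had 247, 380 and 368 reads against 217, 234 and 325. chr5_46399 had 247, 380 and 367 reads against 217, 226 and 322. Summed over the libraries, chr9_61433 and chr5_46399 differed by 12 reads of 1771, and chr1_2789 differed from them by 39 and 49 reads of 1808. Counting error alone would set separate loci of this size apart by about 115 to 116 reads, so these loci were closer than separate counts would be and cannot be told apart here. How reads that fit several places were counted is not stated in the paper or labels. The set held 10.8% to 24.6% of the reads of the loci per library, lowest in hα-syn(A53T) replicate 1 and highest in Ang-(1-7) replicate 2. For chr1_2789 the groups overlapped, and the log2 fold change was 0.38 (standard error 0.28, limma adjusted p = 0.498).

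One more pair had the same property at low depth. chr1_963 and chr4_43533 had 43 and 40 reads, and differed by 3 reads where about 16.1 would come from counting error. These 4 pairs among 5 loci were found among 4950 pairs of the 100 loci with at least 40 reads, with a summed difference under 10% of the larger as the limit, which was set after the values were seen. Exact copies were common among the low loci. In all, 521 loci had the same reads in all 6 libraries as at least 1 other locus, and none of these had more than 20 reads. Whether their equal counts came from coincidence at low depth or from reads counted at several places was not tested. Set against the annotated miRNAs in the same way, over 139300 pairs, 3 loci had a close partner. chr16_22830 differed from miR-1934-5p by 3 reads, where about 23.3 would come from counting error, and chr2_32256 and chr1_3774 came within 60 reads of an annotated miRNA, near the 74.5 and 71.3 of separate counts.

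The other 6 of the 10 highest loci differed in their pattern over the libraries. chrX_64292 had 217, 97.5 and 293 normalized counts with Ang-(1-7) and 403, 371 and 290 without it. Like chr3_39460 it was lowest in Ang-(1-7) replicate 2, and Ang-(1-7) replicate 3 lay just above hα-syn(A53T) replicate 3. Its log2 fold change was -0.93 (standard error 0.37, adjusted p = 0.189 from limma). chr2_32256 had 84.6, 40.04 and 98.1 normalized counts with Ang-(1-7) and 185, 193 and 123 without it. All its Ang-(1-7) values lay below all the others. The log2 fold change of -1.23 did not pass (standard error 0.37, limma adjusted p = 0.0708). Without Ang-(1-7) replicate 3, adjusted p was 0.0409 for chrX_64292 and 0.0276 for chr2_32256 in limma.

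chr2_36526 had 107, 50.3 and 92.9 normalized counts with Ang-(1-7) and 182, 94.7 and 134 without it, so it too was lowest in Ang-(1-7) replicate 2. chr1_3774 was the most even of the 10 in group means, with 104 ± 27.6 and 107 ± 7.57 normalized counts (SD, n = 3). chr2_36545 had 122, 135 and 83.3 normalized counts against 99.9, 75.2 and 94.3, and chr7_54864 had 156, 64.7 and 169 against 61.5, 76.1 and 71.9. For chr7_54864, Ang-(1-7) replicates 1 and 3 stood apart from the other 4 libraries, and adjusted p was 0.284 with all libraries and 0.0367 without Ang-(1-7) replicate 2 in limma. None of these 10 loci passed an adjusted p of 0.05 in the limma fit described here. With no filter on low values chr2_32256 did (adjusted p = 0.0451). In the filtered fit 2 of the 10, chrX_64292 and chr2_32256, had an unadjusted p under 0.05.

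**Figure D3:**
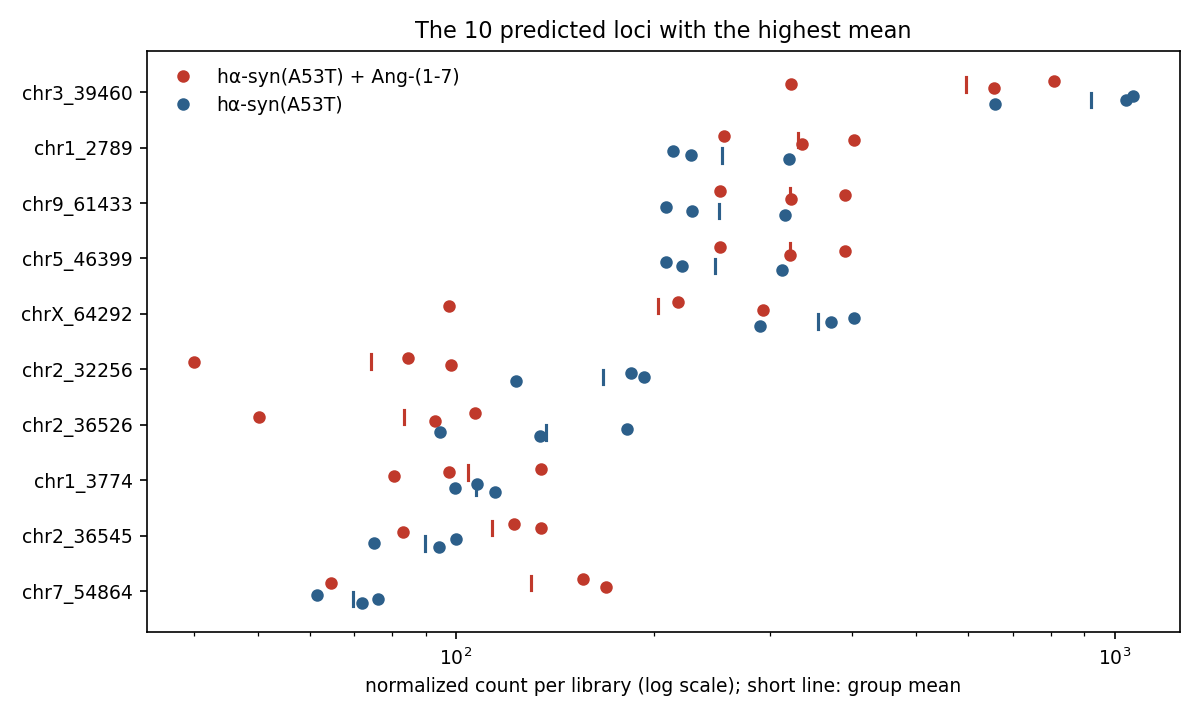
Normalized counts of the 10 predicted loci with the highest mean, 1 point per library on a log scale, with Ang-(1-7) libraries in red and hα-syn(A53T) libraries in blue. Short lines are group means of 3 libraries. chr1_2789, chr9_61433 and chr5_46399 show nearly the same points, and the groups of chr2_32256 do not overlap.

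The effect of Ang-(1-7) on the loci was compared with limma on log2(normalized count + 1), in 1 fit with the annotated miRNAs. It covered the 493 loci that reached 1 normalized count in 3 or more libraries, so 738 of the 1231 loci were too low to be tested. In all, 9 loci passed an adjusted p of 0.05, 7 of them higher and 2 lower with Ang-(1-7), or 1.83% of those tested. Over all 1558 entries of that fit, 110 passed, which is 7.06% (4.24% higher and 2.82% lower). At an unadjusted p under 0.05, 56 of the loci (11.4%) and 19.4% of all entries were found. The groups did not overlap for 69 of the 493 loci, 36 higher and 33 lower, and for 23.7% of all entries. The median log2 fold change was -0.08 over the loci and -0.05 over all entries, and the median standard error was 0.65 over the loci and 0.40 over the annotated miRNAs. The thresholds of the study, an unadjusted p under 0.0001 and a log2 fold change of 1 or more either way, were met by 0 loci in this limma fit, by 1 in voom and by 5 when the loci were fitted apart from the annotated miRNAs.

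The calls were not firm against the choice of libraries. The number of loci past an adjusted p of 0.05 in limma was 1 when Ang-(1-7) replicate 1 was left out, 1 for replicate 2 and 10 for replicate 3 of that group. Leaving out replicates 1, 2 and 3 of the hα-syn(A53T) group gave 3, 3 and 5. The call made without Ang-(1-7) replicate 2 was not among the 9. Of the 10 made without Ang-(1-7) replicate 3, 5 higher and 5 lower, only 5 were among the 9. The number was 4 with a pseudocount of 0.1 and 4 with a minimum of 5 normalized counts, all of them higher with Ang-(1-7).

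Of the 7 loci called higher, 4 had reads in the hα-syn(A53T) libraries too. chr18_28916 had 34.7, 46.2 and 20.2 normalized counts with Ang-(1-7) and 1.92, 1.95 and 8.75 without it. Every Ang-(1-7) library stood above every other, and hα-syn(A53T) replicate 3 was the highest of its group. The means of 33.7 ± 13.1 and 4.21 ± 3.93 (SD, n = 3) differed 8.0-fold, or 2.91 on the log2 scale of the fit (standard error 0.55, limma adjusted p = 0.00885). Leaving out Ang-(1-7) replicate 1 or 2 gave an adjusted p of 0.0556 or 0.0526 in limma.

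chr10_5257 was the most abundant locus that passed, at rank 20 of all loci. It had 56.1, 81.1 and 35.9 normalized counts with Ang-(1-7) and 18.3, 9.76 and 16.5 without it, a 3.89-fold difference. The lowest Ang-(1-7) library was still well above the highest of the other group. The log2 fold change was 1.86 (standard error 0.41, adjusted p = 0.0185 from limma), and adjusted p was 0.0890, 0.0753 and 0.105 in the fits that left out Ang-(1-7) replicate 1, Ang-(1-7) replicate 2 or hα-syn(A53T) replicate 2.

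chr16_22886 had 18.4, 19.5 and 7.01 normalized counts with Ang-(1-7) and 2.88, 2.93 and 0 without it. The log2 fold change was 2.57 (standard error 0.64, adjusted p = 0.0330 from limma). Leaving out any 1 of 4 libraries ended its call, Ang-(1-7) replicates 1 and 2 and hα-syn(A53T) replicates 1 and 3 (limma adjusted p from 0.0523 to 0.154). chr3_38297 had 45.9, 29.8 and 28.0 normalized counts with Ang-(1-7) and 4.81, 8.79 and 17.5 without it, a 3.34-fold difference. Its log2 fold change was 1.77 (standard error 0.47, adjusted p = 0.0413 from limma), and leaving out replicate 1 or 2 of either group ended its call (limma adjusted p from 0.0979 to 0.173). With the replicate number as a block, adjusted p was 0.0563 for chr3_38297. Over 18 settings, with the main fit included, chr18_28916 was called in 16, chr10_5257 in 15, chr16_22886 in 13 and chr3_38297 in 11.

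The other 3 loci with an adjusted p under 0.05 and higher values with Ang-(1-7) were at 0 in all hα-syn(A53T) libraries. They met the filter of the test only through the Ang-(1-7) libraries in which they were high. This makes their calls a description of these libraries, with less weight than those of chr18_28916, chr10_5257 and chr3_38297. chr16_22886, at 0 in hα-syn(A53T) replicate 3, also met the filter only with the help of Ang-(1-7) libraries, so its call carries less weight too. chr7_55917 had 13, 10 and 5 reads in the Ang-(1-7) libraries, or 9.30 ± 4.52 normalized counts (SD, n = 3). Against a floor of 3 reads over the 3 hα-syn(A53T) libraries, it was at least 9.59-fold higher with Ang-(1-7). Its adjusted p was 0.00638 in limma, and 0.00524 in a fit with no filter. chr3_39051 had 6, 3 and 9 reads and was at least 5.87-fold higher by the same floor (adjusted p = 0.0185 from limma, 0.0250 with no filter, and 0.0553 and 0.0739 without hα-syn(A53T) replicates 1 and 2). chr4_42561 had 3, 8 and 3 reads and was at least 4.78-fold higher (adjusted p = 0.0392 from limma, 0.0571 with no filter, and 0.0729 to 0.129 when each hα-syn(A53T) library was left out). When an Ang-(1-7) library was left out, these 3 loci could not be tested.

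The 2 loci that fell were both on chromosome 3 and both had few reads. They met the filter of the test only through the hα-syn(A53T) libraries in which they were high. Their calls are therefore a description of these libraries, and carry less weight in the same way as those of the 3 loci before them. chr3_40291 had 2, 0 and 0 reads with Ang-(1-7) and 8, 8 and 5 without it. Its log2 fold change was -2.40 (standard error 0.62, adjusted p = 0.0362 from limma). chr3_38098 had 0, 1 and 1 reads with Ang-(1-7) and 5, 7 and 7 without it. Its log2 fold change was -2.18 (standard error 0.56, adjusted p = 0.0363 from limma). Leaving out Ang-(1-7) replicate 2 or 3 or any 1 hα-syn(A53T) library ended the call of chr3_40291 (limma adjusted p from 0.0609 to 0.158). Leaving out any 1 library but Ang-(1-7) replicate 3 ended that of chr3_38098 (0.0707 to 0.167). In voom neither passed (adjusted p = 0.0606 for chr3_40291 and 0.0699 for chr3_38098). With all libraries in limma, chr3_40291 had an adjusted p of 0.0569 with no filter and 0.0898 with a pseudocount of 0.1. For chr3_38098 it was 0.0832 with no filter, 0.104 with a pseudocount of 0.1 and 0.0854 with the loci fitted apart.

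Another 31 loci were lower in all Ang-(1-7) libraries than in the others without passing, of which the 3 with the smallest p are given. Without overlap, 33 of the 493 loci tested were lower and 36 higher, against 182 and 187 of all 1558 entries. Loci higher without overlap that did not pass are not listed, such as chr16_23668 (unadjusted p = 0.00682 and adjusted p = 0.0799 in limma). chr2_36747 had 3.06, 3.08 and 10.5 normalized counts with Ang-(1-7) and 19.2, 21.5 and 13.6 without it (log2 fold change -1.71, standard error 0.51, adjusted p = 0.0708 from limma). It passed with the loci fitted apart (adjusted p = 0.0463 in limma) and without Ang-(1-7) replicate 3 (0.0133). chr3_38036 had 1, 0 and 1 reads with Ang-(1-7) and 3, 6 and 6 without it (adjusted p = 0.0892 from limma). The third was chr2_32256, described among the 10 highest loci.

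**Figure D4:**
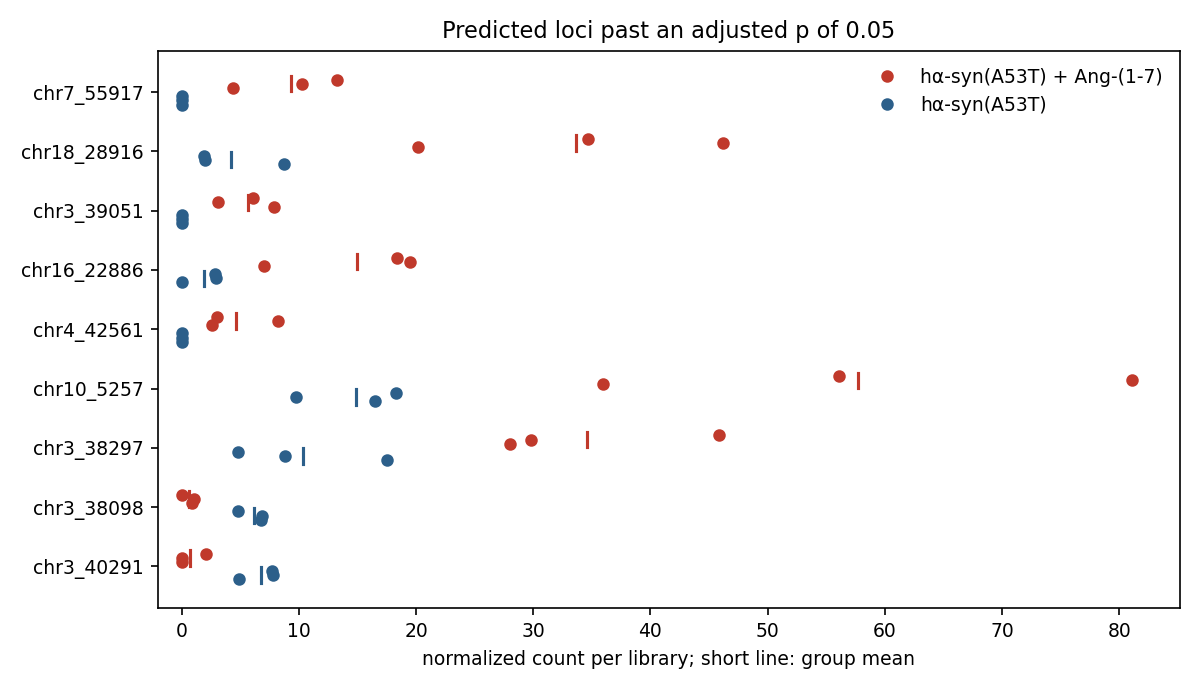
Normalized counts of the 9 predicted loci past an adjusted p of 0.05 in limma, 1 point per library, with Ang-(1-7) libraries in red and hα-syn(A53T) libraries in blue. Short lines are group means of 3 libraries. The groups do not overlap for any of the 9, the 7 upper loci are higher with Ang-(1-7), and chr7_55917, chr3_39051 and chr4_42561 are at 0 in all hα-syn(A53T) libraries.

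The 9 loci had means over 6 libraries of 2.32 to 36.3 normalized counts, above the 0.952 of the median locus and below the 99.9 of the last of the 10 highest. Of them, 5 had at most 30 reads over all libraries, 3 were detected in all 6 libraries and 0 were among the 10 highest loci. Chromosome 3 carried 4 of the 9, 2 in each direction, out of 23 loci tested there. Of all loci tested 1.83% were called, and of all entries 7.06%. The count on chromosome 3 was singled out after the values were seen. Of the 7 called higher, 4 had normalized counts that fell in the order of Ang-(1-7) replicates 2, 1 and 3. This was also the order of the summed epithelial miRNAs in these libraries. Among these 4, chr4_42561 had 3 reads in each of replicates 1 and 3, and chr16_22886 had 18 and 19 reads in replicates 1 and 2. The other loci called higher had a different order, and how common this order is among all loci tested was not counted. Whether the epithelial signal has a part in these loci was not tested.

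Loci found in 1 group only were as frequent in both directions. In total, 13 loci had reads in all 3 Ang-(1-7) libraries and in none of the others, and 13 had the reverse, each 1.06% of the loci. The same patterns were found for 0.648% and 0.877% of all entries of the table, and for 4 and 10 of the annotated miRNAs. With at least 2 of 3 libraries as the limit there were 60 loci in each direction, and with at least 1 of 3 there were 201 with Ang-(1-7) and 225 without it. The pattern chose these loci, so they are described by their reads. The 3 of them that were also called in limma are named among the 9 loci above.

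The reads behind them were few. The 13 loci of the Ang-(1-7) group had 3 to 28 reads in all, with a median of 5, and came from 10 chromosomes. The 13 of the hα-syn(A53T) group had 3 to 11 reads, with a median of 6, and came from 12 chromosomes. At least 10 reads were found for 4 and 2 of them. With at least 2 reads demanded in each library, 5 loci of the Ang-(1-7) group and 0 of the hα-syn(A53T) group were left. The highest of the Ang-(1-7) group were chr7_55917, chr3_39051 and chr4_42561, described above, followed by chr5_46435 with 4, 6 and 1 reads and chrX_63549 with 3, 2 and 3 reads. By the floor of 3 reads over the other group, chr5_46435 was at least 3.82-fold and chrX_63549 at least 2.66-fold higher with Ang-(1-7).

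The highest of the hα-syn(A53T) group was chr10_6342, with 1, 7 and 3 reads, at least 3.66-fold lower with Ang-(1-7). chr9_61593 had 1, 5 and 4 reads and was at least 3.33-fold lower. chrX_63448 had 2, 6 and 1 reads, chr3_38862 had 1, 3 and 4 reads, and chr14_19798 had 2, 1 and 3 reads, at least 2.99-fold, 2.66-fold and 1.99-fold lower. hα-syn(A53T) replicate 2 gave the most reads for the first 3 of these 5. The limit of 1 normalized count let 6 of the 13 loci of the Ang-(1-7) group into the test and 0 of the 13 of the hα-syn(A53T) group. Of these 6, 5 had at least 2 reads in each Ang-(1-7) library. The other, chr17_25338 with 1, 1 and 2 reads, passed because 1 read was worth just over 1 normalized count in Ang-(1-7) replicates 1 and 2, and under 1 in the other 4 libraries. With the limit set at 1 read in at least 3 libraries, chosen after the data were seen, 694 loci were tested, all 26 of these among them. Then 6 were higher and 2 lower in limma, all 8 of them among the 9 above.

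**Figure D5:**
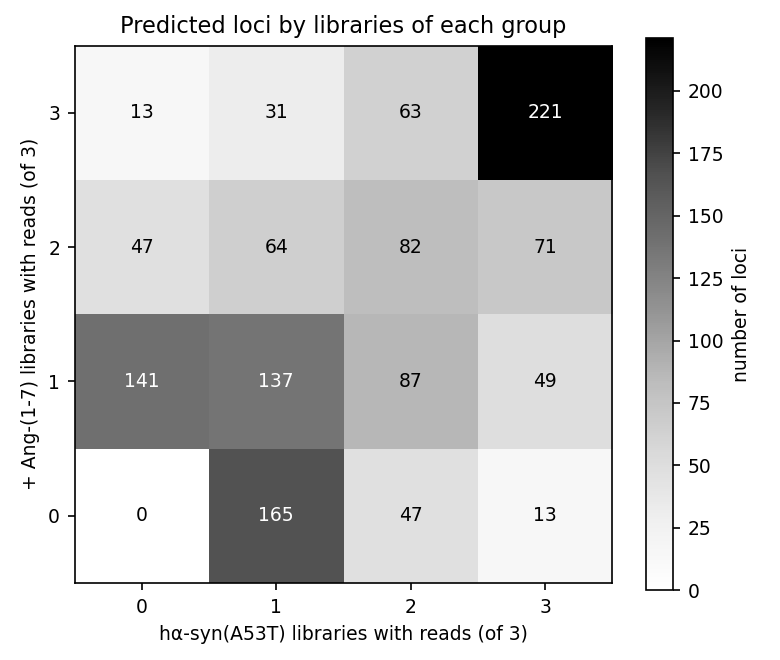
The number of predicted loci by how many of the 3 hα-syn(A53T) libraries (horizontal) and how many of the 3 Ang-(1-7) libraries (vertical) held at least 1 read, with darker squares for more loci. The corners show 221 loci in all 6 libraries and 13 loci in each direction found in all libraries of 1 group and none of the other.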

How the data were processed

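Small RNA of the right SN was measured in 6 libraries. The submitters' notes name Bowtie 1.2.3, DESeq2 1.10.1 and mm9. Neither the paper nor the labels name the program that predicted the loci or its counting rule. The deposited values, a normalized signal, are counts that the authors scaled with size factors, one set for annotated miRNAs and another for loci. Within each block every value was a whole multiple of 1 read (tolerance 1e-06), which gave the reads. The 9 further columns (means, a fold change with its error, statistic and p-values, and a type) belong to the authors' own comparison and were not used.

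limma 3.58.1 (R 4.3.3) was fitted with a trend on log2(normalized count + 1) to entries of at least 1 in at least 3 libraries. The Benjamini-Hochberg adjustment was made over all entries tested. The fit was also run on simulated libraries with the same spread setting for every entry, and the outcome is not reported here. Fold changes on the log2(normalized count + 1) scale understate those of low loci. Values per library were compared with exact permutation tests (scipy 1.17.1, Python 3.11.15, pandas 2.3.3), and figures drawn with matplotlib 3.10.9. Loci were named if among the 10 highest means, past the adjusted p (or, with under 3 in a direction, among its 5 smallest p without overlap), or among the 5 highest found in 1 group only. Loci and lists were chosen with earlier results of these data known. Replicate numbers do not pair the samples by their labels, and deviations of same-numbered libraries over the loci correlated at 0.06, 0.01 and 0.10. Alternatives were other pseudocounts, filters, scalings, identical entries kept once, the loci fitted apart, a replicate block and each library left out. Added later were voom, a filter in reads, scaling by the loci's totals and near-identical loci counted once.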

Additional observations from a re-analysis of the deposited data

How the results depend on the processing

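The number of loci past the adjusted p was 9 (7 higher, 2 lower). It stayed within 1.5 times of that in 9 alternatives of the limma fit that kept all libraries, at 8 with a pseudocount of 5 and 7 in voom. It was 7 with no filter, of which 6 were among the 9, and 8 with the loci fitted apart, of which 7 were. It was 4 with a pseudocount of 0.1 and 4 with a minimum of 5, and 1 to 10 when each library was left out. With the replicate number as a block it was 8, all among the 9, and of the Ang-(1-7) libraries 2 of 3 were closest to their own number, which the labels do not tie to shared mice. The loci found in all libraries of 1 group and none of the other were 26, and were 5 with at least 2 reads, 120 with at least 2 of 3 libraries, 426 with at least 1 of 3, and 48 to 67 when each library was left out. Reads, detection and the share of the 10 highest loci kept their direction in all alternatives run. Of 355 log2 fold changes of the 22 named loci that were tested, 352 kept their sign, and the 3 that did not were of chr1_3774, which never passed. The median log2 fold change over the loci was -0.08, and 0.04 when they were scaled by their own read totals. edgeR and DESeq2 on the recovered reads were planned and not run. voom on the same reads was run in their place. Depth limits the loci, since the median detected locus had 2 or 3 reads in a library.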
